A study of Homo sapiens with 11 samples.

Results

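The genes described here encode the semaphorins, ephrins, Slits and netrins and their receptors, the axon guidance families, in cardiomyocytes made from the established human hiPSC line WTC11 (induced pluripotent stem cells) at passage 63. They were all rows of a count table whose gene symbol named a semaphorin, plexin, neuropilin, ephrin, Eph receptor, Slit, Robo, netrin, UNC5 receptor or DCC. This gave 67 of 19990 genes: 35 ligands (20 semaphorins, 8 ephrins, 3 Slits and 4 netrins) and 32 receptors (9 plexins, 2 neuropilins, 14 Eph receptors, 3 Robos, 3 UNC5 receptors and DCC). All groups shared 1 differentiation, driven by the GSK3 inhibitor CHIR99021 and then the Wnt secretion inhibitor IWP2, and the labels give no treatment that differed between the days. Collection took 4 wells on Day 30, 3 on Day 60 and 4 on Day 113, and their poly(A)-selected RNA was sequenced as paired-end reads of 150 bases. The replicates were wells of 1 differentiation of 1 line, so each test measures only the spread between wells, and the day of culture cannot be told apart from the collection.

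Semaphorins are secreted or membrane-bound ligands that signal through plexins. The secreted class 3 semaphorins mostly do so with neuropilins as co-receptors, which also bind vascular endothelial growth factors. Ephrins are membrane-bound ligands of Eph receptor tyrosine kinases, Slits are secreted ligands of Robo receptors, and netrins bind DCC and UNC5 receptors. Beyond the nervous system these families take part in the septation of the cardiac outflow tract, the innervation of the heart, heart tube formation and the patterning of arteries and veins.

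Each library held between 24.1 and 34.5 M counts (M is 1000000), and the guidance genes took 0.304% to 0.400% of all counts in a well. Levels are given as CPM, counts per 1000000 after scaling by trimmed means (TMM), and changes as log2 fold changes with their standard error (SE) from a single edgeR quasi-likelihood fit over all 11 libraries. A gene was called changed at a Benjamini-Hochberg adjusted p under 0.05 over all 19990 genes. The 10 cardiomyocyte markers, such as TNNT2, ACTN2 and MYH7, summed to 33635 to 45348 CPM on Day 30. On Day 60 they summed to 42388 to 48062 CPM and on Day 113 to 35922 to 39328, with no overlap between these days. After Day 60, TNNT2 was called higher (0.53) and MYH7 (-0.65) and PLN lower. From Day 30 to Day 113, TNNT2 and TNNI1 were called higher and ACTN2 and MYH7 lower. Markers of other cells also moved with the day. The 10 endothelial markers summed to 53.0 to 92.7 CPM on Day 30, 32.7 to 57.9 on Day 60 and 218 to 835 on Day 113. The 9 fibroblast markers summed to 3359 to 7716, 2081 to 3583 and 5455 to 13084 CPM, and the 5 epithelial markers to 628 to 1081, 414 to 549 and 62.5 to 201 CPM on the same days. Members of the fibroblast list went both ways: from Day 30 to Day 113, 5 were called higher (TCF21 by 2.95 log2 units) and 2 lower (PDGFRA at -2.15 and LUM at -1.27). The 7 endoderm and liver markers summed to 403 to 1174 CPM on Day 30, 44.1 to 52.9 on Day 60 and 25.8 to 44.7 on Day 113, with 6 called lower by Day 60, the interval in which most called guidance genes fell. The 5 cell cycle markers summed to 337 to 422, 528 to 773 and 201 to 397 CPM, with all 5 called lower after Day 60. The part of these cells in the changes of the guidance genes was not tested. No listed marker present in the table was at 0 in every well. In such bulk samples, fewer cells of a type and less RNA per cell cannot be told apart.

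Many of the guidance genes changed over the time course, and the first interval was mostly a fall. From Day 30 to Day 60, 22 of 67 were called (32.8%, against 10.3% of all genes), 17 lower (5.91% of all genes) and 5 higher (4.39%). From Day 60 to Day 113, 21 were called (31.3%, against 24.0% of all genes), 14 higher (12.9% of all genes) and 7 lower (11.1%). Between Day 30 and Day 113, 37 were called (55.2%, against 34.5%), 14 higher (17.3% of all genes) and 23 lower (17.2%). The median log2 change of the 67 genes was -0.24, 0.02 and -0.22 in the 3 comparisons, beside -0.01, 0.00 and -0.02 for all genes. All 7 ligands called by Day 60 fell, and of the 15 receptors called by then 10 fell and 5 rose. Any change over the 3 days, tested jointly, was called in 42 of 67 (62.7%, against 37.1%). In 43 genes at least 1 pair of days was called and in 24 none was. The count for Day 60 against Day 30 was lower with a well left out: without Day 60 replicate 1, 2 or 3 it was 11, 13 or 11, and without Day 30 replicate 2 or 3 it was 14 or 13. Fits with fewer wells can call fewer genes of any kind, and these counts were not set beside those of all genes.

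The shares of genes called depend on level. A mean of at least 1 CPM over the 11 libraries was reached by 62 of the 67 guidance genes. Of these, 33.9%, 33.9% and 58.1% were called in the 3 comparisons, beside 12.5%, 29.4% and 41.2% of the 15554 genes at that level, and the joint test called 66.1% beside 44.7%. By wells alone, the 2 days did not overlap in 30 guidance genes for Day 60 against Day 30, in 24 for Day 113 against Day 60 and in 33 for Day 113 against Day 30. Over all genes 24.8%, 30.6% and 35.1% did not overlap. Calls of at least 1 log2 unit in size numbered 10, 6 and 10 guidance genes, with 4.61%, 8.02% and 13.2% of all genes past the same limits.

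**Figure D1:**
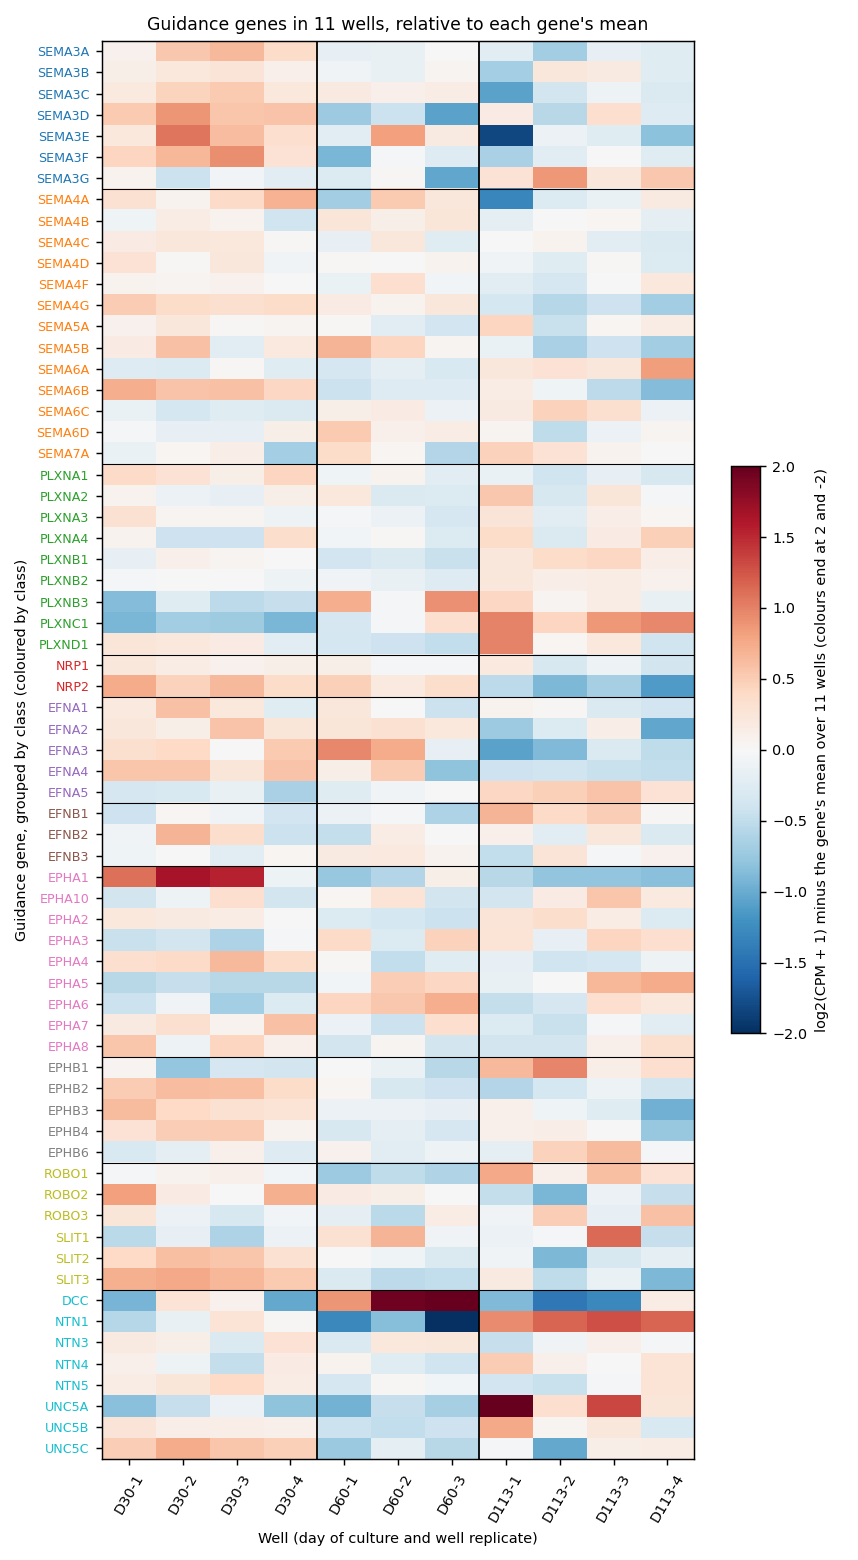
Each row is 1 of the 67 guidance genes and each column 1 of the 11 wells, with colour giving log2(CPM + 1) minus the mean of that gene over the wells (colours end at 2 and -2). NTN1 is low in the 3 Day 60 wells and high in the 4 Day 113 wells, DCC is high in the 3 Day 60 wells, and PLXNC1 runs from low on Day 30 to high on Day 113.

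Which genes led differed by length-corrected level. Per kilobase of annotated exon (CPM per kb, exons of GENCODE release 29), EFNB3, a transmembrane ephrin, ranked 1 of the 67 on every day, at 51.0 ± 3.83 (SD, n = 4) on Day 30, 59.1 ± 2.97 (n = 3) on Day 60 and 52.6 ± 10.96 (n = 4) on Day 113. PLXNB2, a B-class plexin that binds class 4 semaphorins, ranked 2 on every day, at 43.0 ± 1.37, 39.4 ± 2.64 and 48.6 ± 1.92 CPM per kb. The SDs of these leading genes overlapped on Day 113 and not on Days 30 and 60. NRP2 ranked 3 on Day 30 at 33.6 ± 4.02 and on Day 60 at 28.9 ± 2.80, and 9 on Day 113 at 13.2 ± 2.41. NRP1 ranked 4 on each day, at 25.9 ± 1.14, 23.7 ± 1.48 and 21.4 ± 4.01. UNC5B ranked 5, 7 and 3, SLIT3 6, 13 and 16, and ROBO1 17, 23 and 7. At the other end, 5 genes had a mean under 1 CPM on every day: EPHA5, EPHA8, EPHA10, EPHB6 and NTN5.

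**Figure D2:**
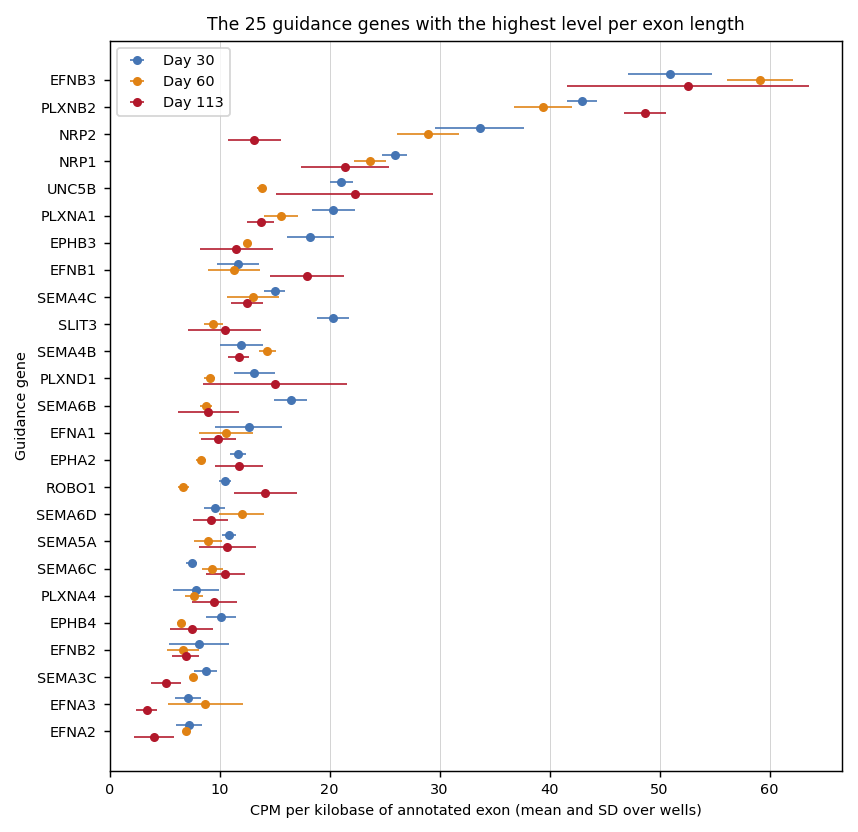
Points give the mean and bars the SD over wells of CPM per kilobase of annotated exon for the guidance genes with the highest levels, by day. EFNB3 and PLXNB2 lead on each day, NRP2 lies at 33.6, 28.9 and 13.2 on Days 30, 60 and 113, and SLIT3 at 20.3 on Day 30 against 9.43 and 10.5 later.

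A dip on Day 60 was found in 6 guidance genes, which fell to Day 60 and rose again to Day 113: the ligands NTN1 and SEMA3D and the receptors ROBO1, UNC5B, PLXNB1 and EPHA2. That pattern was called in 1.45% of all genes. It was called in 2 guidance genes, NTN1 and ROBO1, on leaving out Day 60 replicate 1 or 3 or at an adjusted p under 0.01. Leaving out Day 60 replicate 2 or Day 30 replicate 2 or 3 gave 3, the same 2 and SEMA3D. Leaving out Day 113 replicate 2 or 4 gave 7, with UNC5C or EPHB4 added to the 6. The counts with a well left out were not set beside all genes. Only DCC did the reverse of the dip, a rise to Day 60 and a fall after it, a pattern called in 0.915% of all genes. The change over the second interval differed from that over the first in 12 of 67 guidance genes (17.9%, against 9.34% of all genes), 8 with the second change above the first (4.97% of all genes) and 4 below (4.38%), and all 6 dipping genes and DCC were among them. The other 5 were SLIT3 and UNC5C, above, and PLXNB3, NRP2 and EFNA3, below. Leaving out Day 60 replicate 1 or 3 gave 5 or 6 genes, again not set beside all genes. To show what the members that dipped have at their starts, the 250 bases before the RefSeq gene start (GRCh38.p14) are printed for the 4 of them matched in the RefSeq table, where 58 of the 67 guidance genes had an entry. Each is written 5′ to 3′ on the strand of the gene, with capitals at any match, on either strand, to 1 of the 8 short motifs named after the sequences.
SEMA3D, chr7:85187057-85187306, minus strand: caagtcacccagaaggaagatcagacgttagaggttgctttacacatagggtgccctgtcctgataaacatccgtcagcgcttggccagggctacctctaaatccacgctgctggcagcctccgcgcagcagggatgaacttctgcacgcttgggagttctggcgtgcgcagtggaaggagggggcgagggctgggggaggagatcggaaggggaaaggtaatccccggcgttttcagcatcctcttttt
PLXNB1, chr3:48430087-48430336, minus strand: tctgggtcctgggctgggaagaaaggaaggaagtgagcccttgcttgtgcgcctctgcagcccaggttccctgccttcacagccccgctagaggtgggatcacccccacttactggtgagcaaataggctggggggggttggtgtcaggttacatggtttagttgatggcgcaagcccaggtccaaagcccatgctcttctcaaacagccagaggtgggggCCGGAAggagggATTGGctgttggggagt
EPHA2, chr1:16156070-16156319, minus strand: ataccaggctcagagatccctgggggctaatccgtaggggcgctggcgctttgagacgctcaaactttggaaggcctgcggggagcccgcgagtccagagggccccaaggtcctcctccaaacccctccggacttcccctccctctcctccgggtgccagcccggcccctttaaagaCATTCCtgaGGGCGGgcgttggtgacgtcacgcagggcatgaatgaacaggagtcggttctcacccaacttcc
ROBO1, chr3:79767999-79768248, minus strand: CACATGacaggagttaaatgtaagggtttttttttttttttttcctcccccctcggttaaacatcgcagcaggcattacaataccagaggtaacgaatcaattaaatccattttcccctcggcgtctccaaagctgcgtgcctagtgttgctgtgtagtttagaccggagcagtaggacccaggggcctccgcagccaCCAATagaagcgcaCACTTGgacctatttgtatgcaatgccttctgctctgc
The motif searched as the GC box was GGGCGG and that for the TATA box TATAAA. The CCAAT box was searched as its own letters and the E-box as CANNTG. The GATA motif was AGATAA, the ETS core motif CCGGAA, the TEAD motif GGAATG and the AP-1 motif TGANTCA. In the printed stretches the capitals are an ETS core and a CCAAT box for PLXNB1, a TEAD motif and a GC box for EPHA2, and E-boxes and a CCAAT box for ROBO1, with no match in SEMA3D. No 2 of these matches overlapped, and no motif was held by more than 2 of the 4. Over the 58 guidance genes, a GC box was held by 72.4% against 42.3% of all 27305 promoters, and a CCAAT box by 34.5% against 33%. An E-box was held by 51.7% against 62.2% and a TATA box by 1.72% against 11.1%. A GATA motif was held by 6.9% against 9.37%, an ETS core by 5.17% against 14.8%, a TEAD motif by 5.17% against 11.9% and an AP-1 motif by 1.72% against 6.6%. The median GC content was 66% for the guidance genes and 58% for all promoters, which bears on the GC-rich motifs. A match describes letters only, and the start sites in use in these cells were not measured.

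NTN1 (hg38 chr17:9021542-9244000, plus strand), a secreted netrin that attracts or repels according to the receptor it meets, had the largest dip among these 6 genes. It stood at 4.81, 6.74, 9.38 and 7.73 CPM in the 4 Day 30 wells, at 2.52, 3.76 and 1.10 in the 3 Day 60 wells and at 15.6, 18.2, 20.03 and 18.3 in the 4 Day 113 wells. The 3 days did not overlap, with every Day 60 well lowest and every Day 113 well highest. NTN1 fell by 1.55 ± 0.32 (SE) on the log2 scale to Day 60 (adjusted p = 0.0053), rose by 2.88 ± 0.33 to Day 113 (adjusted p = 2.9e-05), and ended 1.33 ± 0.27 above Day 30 (adjusted p = 0.00135). The change over the second interval exceeded that over the first by 4.43 ± 0.61 (adjusted p = 0.00075). Among Day 113 wells NTN1 was lowest in replicate 1, where the endothelial and fibroblast marker sums were highest. Without that well the rise after Day 60 was 2.95 (adjusted p = 2.7e-05).

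The netrin receptors each took a course of their own. DCC (chr18:52340172-53535903, plus strand), the receptor that mediates attraction to netrins, stood at 0.573, 2.64, 2.20 and 0.481 CPM on Day 30, at 4.53, 10.6 and 13.2 on Day 60 and at 0.635, 0.112, 0.228 and 2.33 on Day 113. All Day 60 wells were above all other wells, while Days 30 and 113 overlapped. DCC rose by 2.67 ± 0.74 on the log2 scale to Day 60 (adjusted p = 0.0291) and fell by 3.55 ± 0.77 after it (adjusted p = 0.00375), so NTN1 and DCC moved in opposite directions in both intervals. The rise of DCC was not past the threshold without Day 30 replicate 1, 3 or 4 (adjusted p = 0.086, 0.051 and 0.072), without Day 60 replicate 2 or 3 (0.076 and 0.12), or with robust dispersions (0.089). The 8 neuronal markers summed to 47.7 to 69.3 CPM on Day 30, 47.4 to 67.0 on Day 60 and 40.1 to 51.2 on Day 113. By Day 60 only STMN2 was called (1.42, adjusted p = 0.019), with 5 of the 8 above 0 and 3 below. After it only NEFL was called (-2.35, adjusted p = 0.001), with 2 above 0 and 6 below. Each interval thus had 12.5% of these markers called, beside 10.3% and 24.0% of all genes. Their part in the course of DCC was not tested.

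UNC5B (chr10:71212570-71302864, plus strand), a repulsive netrin receptor known from endothelial cells, had 154, 142, 143 and 138 CPM on Day 30, 95.7, 91.6 and 96.6 on Day 60 and 219, 134, 151 and 105 on Day 113. Every Day 60 well was below every other well, and Day 113 spread on both sides of Day 30. UNC5B fell by 0.61 ± 0.17 to Day 60 (adjusted p = 0.0339) and rose by 0.69 ± 0.17 after it (adjusted p = 0.00919). The fall was called in the fit without a Day 113 well but not without any single well of Day 30 or Day 60 (adjusted p = 0.053 to 0.11). UNC5A, a related receptor, was at or under 0.790 CPM in all Day 30 and Day 60 wells and at 9.15, 1.42, 3.85 and 1.28 on Day 113. No Day 113 well overlapped an earlier one, and UNC5A rose by 4.24 ± 1.02 after Day 60 (adjusted p = 0.00712, or 0.052 with limma-voom). UNC5C instead fell by 1.11 ± 0.25 to Day 60 (adjusted p = 0.00867), from 23.9 ± 2.22 CPM (SD, n = 4) to 11.04 ± 2.43 (n = 3), and stood at 14.3 ± 4.83 (n = 4) on Day 113. That fall had an adjusted p of 0.061 or 0.054 with Day 60 replicate 1 or 3 left out, and the lower level at Day 113 (-0.74 ± 0.22, adjusted p = 0.0173) had 0.056 without Day 30 replicate 2. NTN4, a netrin of basement membranes, and NTN3 and NTN5 were not called in any comparison. NTN4 stood at 19.6 ± 3.85, 17.99 ± 3.15 and 24.3 ± 3.90 CPM, and NTN3 at 7.04 ± 1.31, 6.91 ± 1.48 and 6.05 ± 1.10.

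**Figure D3:**
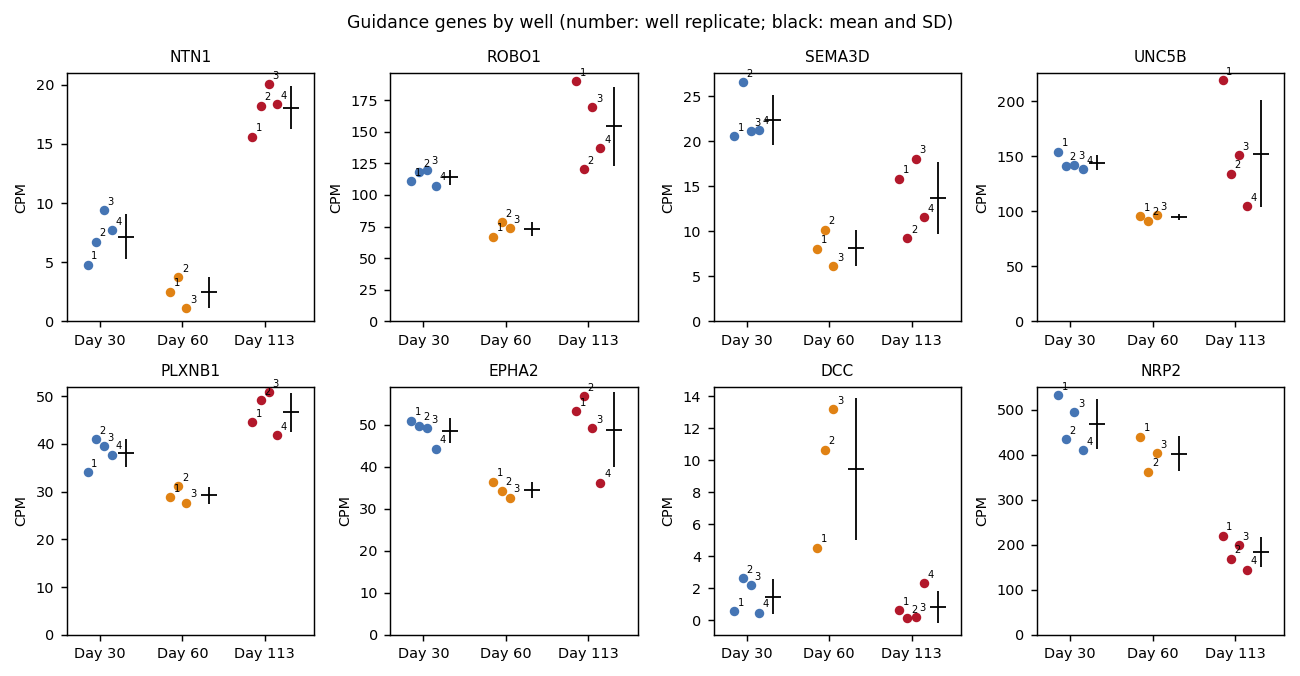
CPM of 8 guidance genes in each well by day (vertical axis, starting at or just below 0), with numbers giving the well replicate and black marks the mean and SD. NTN1, ROBO1, SEMA3D, UNC5B, PLXNB1 and EPHA2 are lowest on Day 60, DCC is highest on Day 60, and NRP2 is lowest on Day 113.

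Among the Slits and their receptors, the ligands SLIT2 and SLIT3 fell early and stayed low, while ROBO1 dipped and ROBO2 fell late. SLIT3 (chr5:168661733-169301129, minus strand), the most abundant Slit here per exon length, had 299.5, 309.6, 289.9 and 260.5 CPM on Day 30, 149, 126 and 129 on Day 60 and 206, 128, 166 and 96.9 on Day 113. No later well reached the lowest Day 30 well, and Day 113 spread around Day 60. SLIT3 fell by 1.11 ± 0.19 on the log2 scale to Day 60 (adjusted p = 0.00124) and stood 0.15 ± 0.18 above that on Day 113 (adjusted p = 0.608). SLIT2 fell by 0.60 ± 0.16 to Day 60 (adjusted p = 0.0284) and was 0.83 ± 0.15 log2 units below Day 30 on Day 113 (-0.83, adjusted p = 0.00055). The early fall of SLIT2 was called without Day 30 replicate 4 but not without any other single well of the 2 days (adjusted p = 0.051 to 0.16). SLIT1 was at 1.65 ± 0.470, 3.22 ± 1.09 and 3.03 ± 2.21 CPM and was not called.

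ROBO1 (chr3:78597240-79767815, minus strand), the main Slit receptor of this group by level, had 111, 118, 120.0 and 107 CPM on Day 30, 67.2, 78.3 and 73.6 on Day 60 and 190.1, 120.1, 169 and 137 on Day 113. The days did not overlap, although Day 113 replicate 2 lay just above the highest Day 30 well. ROBO1 fell by 0.64 ± 0.13 (adjusted p = 0.00601), rose by 1.08 ± 0.14 (adjusted p = 6.1e-05) and ended 0.44 ± 0.12 above Day 30 (adjusted p = 0.0114). ROBO2, another Slit receptor, stood at 30.6 ± 8.51, 23.5 ± 1.37 and 15.5 ± 3.64 CPM. It fell by 0.59 ± 0.21 after Day 60 (adjusted p = 0.0487) and lay at -0.98 ± 0.19 against Day 30 (adjusted p = 0.00108). The late fall of ROBO2 passed without Day 30 replicate 1, 2 or 3 or Day 113 replicate 3, and was lost without any other well (adjusted p = 0.052 to 0.13) and with limma-voom (0.054). ROBO3 was near 1 CPM, at 1.04 ± 0.334, 0.866 ± 0.442 and 1.503 ± 0.649, and was not called. Summed per kb, the 6 Slits and Robos were led by SLIT3 on Day 30 (52.8% of their sum) and by ROBO1 on Day 113 (48.5%).

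The class 3 semaphorins, secreted ligands that act mostly through neuropilins, were lower on Day 113 than on Day 30 in 5 of 7 members (17.2% of all genes) and higher in 1, SEMA3G (17.3% of all genes). SEMA3D dipped: it had 20.5, 26.6, 21.2 and 21.3 CPM on Day 30, 8.07, 10.2 and 6.15 on Day 60 and 15.9, 9.22, 18.1 and 11.6 on Day 113. Day 60 and Day 113 overlapped through Day 113 replicate 2, and all wells of both lay below Day 30. SEMA3D fell by 1.46 ± 0.23 (adjusted p = 0.00073) and rose by 0.75 ± 0.23 (adjusted p = 0.0236). That rise had an adjusted p of 0.072 or 0.12 with Day 60 replicate 1 or 3 left out, 0.074 lacking Day 113 replicate 3 and 0.065 in a fit of the 2 days alone, and the lower level at Day 113 (-0.71 ± 0.20, adjusted p = 0.013) had 0.052 without Day 30 replicate 2.

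SEMA3F, a ligand that prefers NRP2, fell by 1.03 ± 0.23 to Day 60 (adjusted p = 0.0101, or 0.059 without Day 60 replicate 1), from 20.4 ± 4.21 to 10.0 ± 3.18 CPM, and was at 10.8 ± 2.12 on Day 113. Its exons overlap those of its annotated antisense gene. SEMA3A, a ligand of NRP1 that repels sympathetic axons, went from 44.5 ± 7.44 to 30.7 ± 2.27 and 26.2 ± 4.14 CPM. SEMA3A was called lower on Day 113 than on Day 30 (-0.77 ± 0.14, adjusted p = 0.00055). Its earlier fall (-0.54 ± 0.15, adjusted p = 0.0327) was kept without Day 30 replicate 1 but lost without any other single well of the 2 days (adjusted p = 0.051 to 0.14) and with upper-quartile scaling (0.051). SEMA3C, which takes part in outflow tract septation, had 49.1, 58.6, 62.1 and 49.4 CPM on Day 30, 48.8, 46.1 and 47.7 on Day 60 and 19.9, 33.1, 39.97 and 34.7 on Day 113. Its days did not overlap, and it fell by 0.57 ± 0.17 after Day 60 (adjusted p = 0.0242). The call for SEMA3C was lost on leaving out Day 60 replicate 1 or 3 (adjusted p = 0.07 and 0.061) and in a fit of the 2 days alone (0.053), while the change from Day 30 to Day 113 was -0.78 ± 0.16 (adjusted p = 0.00143).

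SEMA3E, which binds PLXND1 without a neuropilin, stood at 6.68 ± 2.13, 5.38 ± 2.33 and 2.32 ± 1.47 CPM and was called lower on Day 113 than on Day 30 (-1.53 ± 0.47, adjusted p = 0.0179, or 0.063 without Day 30 replicate 2). Within Day 113 it ranged from 0.433 CPM in replicate 1 to 3.67 in replicate 2. SEMA3G was the exception in the class: 22.1, 15.3, 20.1 and 17.8 CPM on Day 30, 17.0, 21.2 and 9.68 on Day 60 and 25.9, 38.7, 24.5 and 30.6 on Day 113. All its Day 113 wells lay above all others, and it rose by 0.91 ± 0.23 after Day 60 (adjusted p = 0.00963). SEMA3G is known from endothelial cells, whose 10 listed markers were all called higher in the same interval, and their part was not tested. Its change from Day 30 to Day 113 (0.67 ± 0.21, adjusted p = 0.0206) had an adjusted p of 0.062 or 0.051 with Day 30 replicate 2 or 4 left out, and of 0.069 lacking Day 113 replicate 2. SEMA3B, at 36.5 ± 1.86, 31.1 ± 2.27 and 30.4 ± 8.58 CPM, was not called.

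The 13 semaphorins of classes 4 to 7, most of them membrane-bound, had 1 member called by Day 60, 3 after it and 5 over the whole course. These were 7.69%, 23.1% and 38.5%, near the 10.3%, 24.0% and 34.5% of all genes. SEMA6B fell by 0.91 ± 0.18 to Day 60 (adjusted p = 0.00496), with 81.0, 72.0, 72.7 and 64.6 CPM on Day 30 and 35.7, 40.2 and 40.1 on Day 60. It held at 53.7, 45.3, 33.2 and 26.1 CPM on Day 113, spread on both sides of Day 60 and below every Day 30 well. SEMA4G fell by 0.69 ± 0.13 after Day 60 (adjusted p = 0.00136), from 21.4 ± 1.20 to 13.3 ± 1.58 CPM, although its exons overlap those of MRPL43 and the counts of overlapping genes are uncertain here. SEMA5B, a semaphorin with thrombospondin repeats, fell by 0.91 ± 0.20 after Day 60 (adjusted p = 0.00483), from 25.4 ± 5.58 to 13.5 ± 2.73 CPM. Its change from Day 30 to Day 113 (-0.70 ± 0.19, adjusted p = 0.0102) reached 0.05 without Day 30 replicate 2.

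SEMA6A, a ligand of A-class plexins, rose by 0.72 ± 0.15 after Day 60 (adjusted p = 0.00328), with 24.3, 26.8 and 24.7 CPM on Day 60 and 36.1, 38.0, 36.3 and 55.8 on Day 113. Replicate 4 stood above the rest, and no Day 113 well overlapped an earlier one. SEMA6A also overlaps its annotated antisense genes. SEMA6C was higher on Day 113 than on Day 30 (0.49 ± 0.12, adjusted p = 0.00445), at 43.5 ± 2.84, 54.2 ± 5.56 and 61.1 ± 10.3 CPM. SEMA5A stood at 131 ± 8.03, 108 ± 15.7 and 129 ± 31.5 CPM and was not called. SEMA4A, SEMA4B, SEMA4C, SEMA4D, SEMA4F, SEMA6D and SEMA7A were not called in any pair, with log2 changes from Day 30 to Day 113 between -0.82 (SEMA4A) and 0.38 (SEMA7A).

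The semaphorin receptors moved apart. NRP2 (chr2:205681990-205798133, plus strand), a co-receptor of class 3 semaphorins and of VEGFC, had 532, 434, 494 and 409 CPM on Day 30, 440.2, 362 and 403 on Day 60 and 220.2, 169, 199 and 144 on Day 113. Days 30 and 60 overlapped, and every Day 113 well was far below both. NRP2 fell by 1.13 ± 0.14 on the log2 scale after Day 60 (adjusted p = 4.2e-05) and by 1.35 ± 0.13 over the whole course (adjusted p = 1.2e-06), a call kept in every alternative. NRP1, the other neuropilin, stood at 317, 299, 286 and 293, at 292, 264 and 262 and at 311, 218, 251 and 209 CPM. NRP1 was not called in any pair, and its 3 days overlapped. The change from Day 30 to Day 113 was -0.27 ± 0.11 for NRP1 (adjusted p = 0.0718), and its difference from that of NRP2 was not tested.

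PLXNC1 (chr12:94148723-94307675, plus strand), the plexin that binds SEMA7A, was the 1 guidance gene called higher in both intervals. It had 5.54, 6.57, 6.55 and 5.57 CPM on Day 30, 8.75, 11.2 and 14.5 on Day 60 and 23.5, 15.6, 21.3 and 23.0 on Day 113. Its days did not overlap, and the steps were 0.92 ± 0.19 (adjusted p = 0.00628) and 0.86 ± 0.19 (adjusted p = 0.00478), a total of 1.78 ± 0.18 (adjusted p = 2.6e-06). The exons of PLXNC1 overlap those of CEP83, another gene of the table. SEMA7A stood at 8.85 ± 2.26, 9.68 ± 3.32 and 11.5 ± 1.82 CPM and was not called.

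Of the B-class plexins, PLXNB1, the receptor of SEMA4D, dipped: 34.0, 41.0, 39.6 and 37.8 CPM on Day 30, 28.8, 31.1 and 27.7 on Day 60 and 44.5, 49.2, 50.9 and 41.8 on Day 113. The days did not overlap, and PLXNB1 rose by 0.68 ± 0.11 after Day 60 (adjusted p = 0.00048). Its fall to Day 60 (-0.38 ± 0.11, adjusted p = 0.0367) was called without Day 30 replicate 1 but lost without any other single well of the 2 days (adjusted p = 0.051 to 0.15) and with upper-quartile scaling (0.057). Its rise from Day 30 to Day 113 (0.29 ± 0.10, adjusted p = 0.0349) was lost without Day 30 replicate 1, 3 or 4 (0.11, 0.055 and 0.073), without Day 113 replicate 2 or 3 (0.06 and 0.1) and with upper-quartile scaling (0.05). PLXNB2 rose by 0.31 ± 0.09 after Day 60 (adjusted p = 0.0181), from 286 ± 19.2 to 353 ± 14.0 CPM. That rise was lost without Day 60 replicate 3 (0.094) and in a fit of the 2 days alone (0.067).

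PLXNB3 rose by 1.34 ± 0.29 to Day 60 (adjusted p = 0.00804), from 2.87 ± 0.663 to 7.25 ± 2.57 CPM, and was at 5.02 ± 0.968 on Day 113, with exons that overlap SRPK3. Its level at Day 113 was above Day 30 (0.81 ± 0.28, adjusted p = 0.0327), a call lost without Day 30 replicate 1, 3 or 4 (0.1, 0.067 and 0.057), without Day 113 replicate 1 or 3 (0.088 and 0.059), and with limma-voom (0.052). Of the A-class plexins PLXNA1 was the 1 called. It fell to Day 60 (-0.38 ± 0.11, adjusted p = 0.0328) and was lower on Day 113 than on Day 30 (-0.57 ± 0.10, adjusted p = 0.0004), at 222 ± 21.4, 170.5 ± 17.3 and 150.2 ± 13.0 CPM. The early fall of PLXNA1 was lost without Day 30 replicate 1, 2 or 4 (0.09, 0.093 and 0.089), Day 60 replicate 1 or 3 (0.13 and 0.2) and with upper-quartile scaling (0.053). PLXNA2, PLXNA3 and PLXNA4 had log2 changes from Day 30 to Day 113 of 0.17, -0.02 and 0.28 and were not called.

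PLXND1, the endothelial receptor of SEMA3E, had 141, 138, 133 and 101.3 CPM on Day 30, 92.9, 88.8 and 83.8 on Day 60 and 237, 121, 138 and 89.7 on Day 113. Day 113 replicate 1 stood highest, and replicate 4 lay among the Day 60 wells. PLXND1 rose by 0.73 ± 0.23 after Day 60 (adjusted p = 0.0313), a value that was 0.39 (adjusted p = 0.066) without Day 113 replicate 1. It was also lost without Day 60 replicate 1, 2 or 3 (0.073, 0.079 and 0.1), with DESeq2 (0.074), with robust dispersions (0.083) and in a fit of the 2 days alone (0.067). The earlier fall of PLXND1 to Day 60 (-0.53 ± 0.23, adjusted p = 0.17) was not called. It passed in a fit of those 2 days alone (0.0047) and without Day 113 replicate 1 (0.018).

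Of the 14 guidance genes called higher after Day 60, 7 were highest in the Day 113 well with the highest endothelial marker sum: the receptors UNC5A, UNC5B, PLXND1, PLXNB2, PLXNC1 and ROBO1 and the ligand EFNB1. The summed endothelial markers were 835, 369.8, 417 and 218 CPM in Day 113 replicates 1 to 4, and all 10 were called higher than on Day 60 and than on Day 30. Over the same wells 5 of the 14 (UNC5A, UNC5B, PLXND1, PLXNB2 and EFNB1) ran from replicate 1 at the top through 3 and 2 to replicate 4, the same order as the endothelial sum, and the other 9 did not. Both counts were made for guidance genes alone, with no share over all genes. An order common to many genes in these wells therefore cannot be told apart from one of the guidance genes. Without Day 113 replicate 1 the rise after Day 60 was 0.46 for UNC5B (adjusted p = 0.011), 3.39 for UNC5A (adjusted p = 0.03) and 0.96 for ROBO1 (adjusted p = 5.5e-05). Without it the rise was 0.28 for PLXNB2 (adjusted p = 0.039), 0.80 for PLXNC1 (adjusted p = 0.011) and 0.57 for EFNB1 (adjusted p = 0.026). The fibroblast sums were ordered as the endothelial sums on Day 113 (13084, 6778, 11308 and 5455 CPM in replicates 1 to 4). So were the smooth muscle and pericyte sums (1562, 1249, 1312 and 991 CPM). The sums of the 46 guidance effectors described below shared the order (5093, 4460, 4742 and 4275 CPM). Those effectors were not listed as markers of a cell type, but they include ARHGEF15, known from endothelial cells. The other marker lists ran in other orders. The part of any of these cell types in these rises was not tested.

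**Figure D4:**
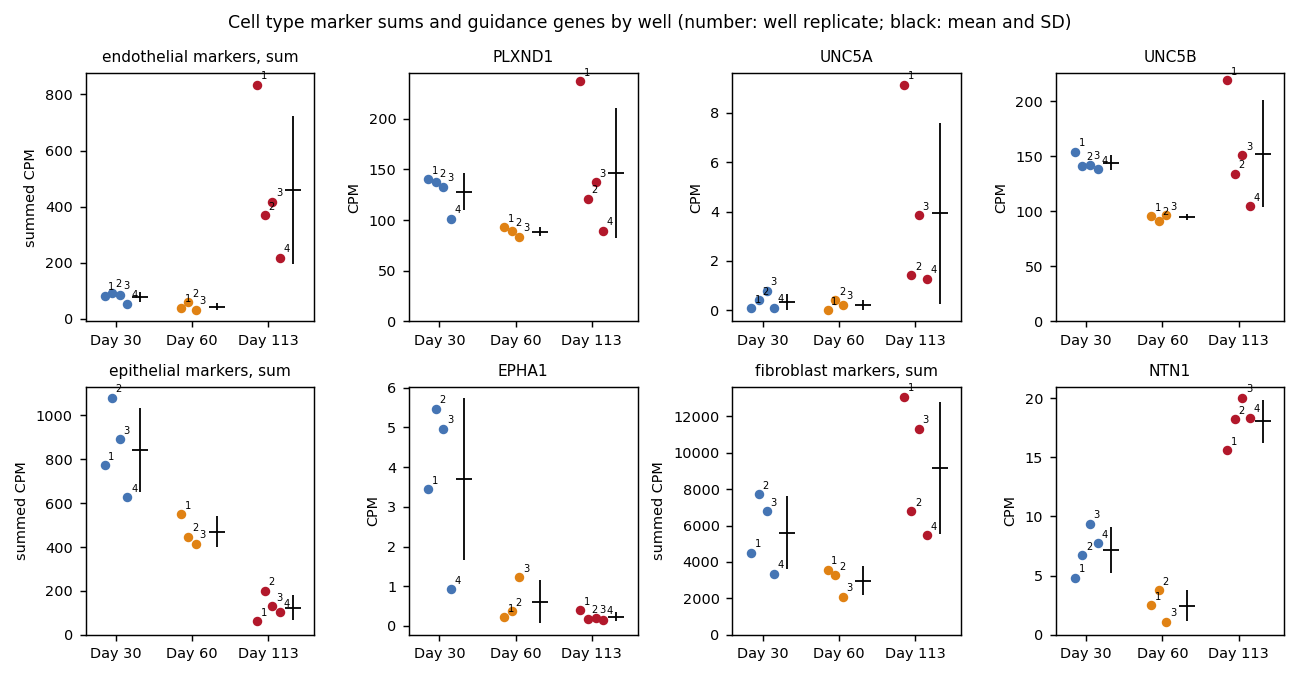
CPM by well and day for the summed endothelial, epithelial and fibroblast markers and for PLXND1, UNC5A, UNC5B, EPHA1 and NTN1, with numbers giving the well replicate and black marks the mean and SD. Day 113 replicate 1 is highest for the endothelial sum (835 CPM), PLXND1 (237), UNC5A (9.15) and UNC5B (219) and lowest of its day for NTN1 (15.6), and EPHA1 and the epithelial sum are highest on Day 30 and lowest on Day 113.

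Among the 8 ephrins none was called by Day 60, when 10.3% of all genes were. After it EFNA5 and EFNB1 rose (12.9% of all genes) and EFNA3 fell (11.1%). These counts in so few members were not tested against those shares. EFNA5, a lipid-anchored ligand of EphA receptors, had 21.5, 21.8, 24.4 and 17.1 CPM on Day 30, 22.9, 25.9 and 27.1 on Day 60 and 36.7, 38.2, 41.1 and 33.3 on Day 113. Every Day 113 well was above all others, and EFNA5 rose by 0.56 ± 0.13 after Day 60 (adjusted p = 0.00673) and by 0.82 ± 0.12 over the whole course (adjusted p = 0.00011). EFNA3 went the other way, falling by 1.37 ± 0.27 after Day 60 (adjusted p = 0.00177). It had 21.9, 18.6 and 9.43 CPM on Day 60 and 4.56, 5.36, 8.59 and 7.26 on Day 113, with no overlap.

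EFNA4 was lower on Day 113 than on Day 30 (-1.06 ± 0.25, adjusted p = 0.00407), at 9.95 ± 1.13, 6.999 ± 3.32 and 4.76 ± 0.181 CPM. EFNA2 was also lower (-0.84 ± 0.28, adjusted p = 0.0256), at 6.88 ± 1.13, 6.62 ± 0.260 and 3.82 ± 1.70 CPM, a call lost without Day 30 replicate 3 (0.084) or Day 113 replicate 1 or 4 (0.063 and 0.067). EFNB1, a transmembrane ephrin, rose by 0.67 ± 0.17 after Day 60 (adjusted p = 0.0108, or 0.062 without Day 60 replicate 3), from 40.7, 43.3 and 28.4 to 71.8, 58.2, 62.9 and 45.2 CPM. Its Day 113 wells lay above all Day 60 wells, and replicate 4 lay below 1 Day 30 well. EFNB3, with 164 ± 12.4, 190.5 ± 9.57 and 169 ± 35.3 CPM, EFNB2, the arterial ephrin, with 40.8 ± 13.8, 33.5 ± 7.29 and 34.8 ± 6.18, and EFNA1, with 32.1 ± 7.69, 26.8 ± 6.23 and 25.1 ± 4.05, were not called.

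The EphA receptors split by member. EPHA2, a receptor of A-type ephrins, dipped, with 51.0, 49.8, 49.2 and 44.3 CPM on Day 30, 36.5, 34.3 and 32.6 on Day 60 and 53.2, 56.8, 49.2 and 36.2 on Day 113. Day 113 replicate 4 lay among the Day 60 wells, replicate 3 lay within the range of Day 30, and replicates 1 and 2 lay above every Day 30 well. EPHA2 fell by 0.50 ± 0.13 (adjusted p = 0.0256) and rose by 0.50 ± 0.13 (adjusted p = 0.0122, or 0.051 without Day 60 replicate 3). Its fall was called without Day 30 replicate 4 but lost without any other single well of the 2 days (adjusted p = 0.061 to 0.12).

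EPHA1 (chr7:143390289-143408892, minus strand), an Eph receptor of epithelia, had 3.44, 5.47, 4.97 and 0.928 CPM on Day 30, 0.223, 0.369 and 1.23 on Day 60 and 0.404, 0.187, 0.200 and 0.160 on Day 113. Day 30 replicate 4 was far below the rest of its day and overlapped Day 60. EPHA1 was lower on Day 113 than on Day 30 by the most of any called guidance gene (-3.92 ± 0.66, adjusted p = 0.00027), while its fall to Day 60 (-2.59 ± 0.68, adjusted p = 0.0222) was lost without Day 30 replicate 2 or 3 (0.084 and 0.07), without Day 60 replicate 1 or 2 (0.097 and 0.083) and with limma-voom (0.087). All 5 epithelial markers were also called lower on Day 113 than on Day 30, and Day 30 replicate 4 had the lowest Day 30 sum of both the epithelial (628 CPM) and the endoderm and liver markers (403 CPM, against 894 to 1174 in the other 3 wells). Their part in the fall of EPHA1 was not tested, and its exons overlap ZYX.

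EPHA4, a receptor of both ephrin types, fell by 0.71 ± 0.17 to Day 60 (adjusted p = 0.0123) and held, at 18.7 ± 2.06, 11.4 ± 2.24 and 11.2 ± 1.22 CPM. Leaving out Day 60 replicate 2 or 3 gave EPHA4 an adjusted p of 0.061 or 0.06. EPHA7 was lower on Day 113 than on Day 30 (-0.55 ± 0.16, adjusted p = 0.0119), at 52.8 ± 8.42, 41.7 ± 11.6 and 36.0 ± 4.28 CPM. EPHA3 was higher (0.62 ± 0.19, adjusted p = 0.0196), at 13.7 ± 2.69, 20.8 ± 5.54 and 21.0 ± 3.71 CPM, and lost that call without Day 30 replicate 1 or 3 (0.056 and 0.066) or Day 113 replicate 3 (0.059). EPHA6 rose by 1.38 ± 0.42 to Day 60 (adjusted p = 0.0457), from 1.23 ± 0.397 to 3.20 ± 0.450 CPM, and was at 1.78 ± 0.757 on Day 113. The call for EPHA6 was lost without Day 30 replicate 1, 3 or 4, any Day 60 well or Day 113 replicate 4 (adjusted p = 0.052 to 0.14).

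EPHA5 gave the largest fold change of the 67 guidance genes, from the lowest Day 30 count. It had 2 counts in all on Day 30, both in replicate 2, against 72 on Day 60 and 105 on Day 113. The ratio of normalised levels to Day 30 was 46.2 (95% exact interval 12.3 to 389) for Day 60 and 50.1 (13.5 to 419) for Day 113, intervals that cover counting error only. EPHA5 was called higher in both comparisons (adjusted p = 0.00688 and 0.00127) but reached only 0.810 ± 0.348 and 0.881 ± 0.579 CPM. EPHA8 and EPHA10, at means of 0.111 to 0.545 CPM, were not called.

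The EphB receptors, whose ligands are the transmembrane ephrins, were lower on Day 113 than on Day 30 in 3 of 5 members (17.2% of all genes) and higher in 1 (17.3% of all genes). EPHB2 had 33.2, 36.2, 35.7 and 30.3 CPM on Day 30, 23.8, 18.4 and 17.1 on Day 60 and 15.1, 18.03, 21.6 and 17.7 on Day 113. All later wells were below Day 30, and EPHB2 fell by 0.78 ± 0.15 to Day 60 (adjusted p = 0.00376) and lay at -0.90 ± 0.14 on Day 113 (adjusted p = 0.00012). EPHB3, the most abundant EphB receptor per exon length, was lower on Day 113 (-0.66 ± 0.17, adjusted p = 0.00551), at 82.7 ± 9.71, 56.6 ± 1.16 and 52.3 ± 14.9 CPM. The fall of EPHB3 to Day 60 (-0.55 ± 0.18, adjusted p = 0.066) was not called. It passed with DESeq2 (0.035), in a fit of the 2 days alone (0.0021) and without Day 113 replicate 1 or 4 (0.034 and 0.006).

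EPHB4, the venous partner of EFNB2, fell by 0.64 ± 0.18 to Day 60 (adjusted p = 0.0294), from 65.2 ± 8.89 to 41.9 ± 2.47 CPM. This call was kept without Day 30 replicate 4 and lost without any other single well of the 2 days (adjusted p = 0.056 to 0.12). EPHB4 was also lower on Day 113, at 48.0 ± 12.3 CPM (-0.44 ± 0.16, adjusted p = 0.0443), and this value was -0.27 (adjusted p = 0.085) without Day 113 replicate 4. The Day 113 call for EPHB4 was also lost without Day 30 replicate 1, 2 or 3, any Day 60 well or Day 113 replicate 3 (adjusted p = 0.054 to 0.12) and in a fit of the 2 days alone (0.068), and its exons overlap SLC12A9. EPHB1 was higher on Day 113 than on Day 30 (1.40 ± 0.44, adjusted p = 0.021), at 1.06 ± 0.484, 1.24 ± 0.433 and 2.80 ± 0.980 CPM, with an adjusted p of 0.058 lacking Day 30 replicate 2 and of 0.069 lacking Day 113 replicate 2. The exons of EPHB1 overlap those of KY, another gene of the table, on the other strand. EPHB6 stayed under 1 CPM in every well and was not called.

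**Figure D5:**
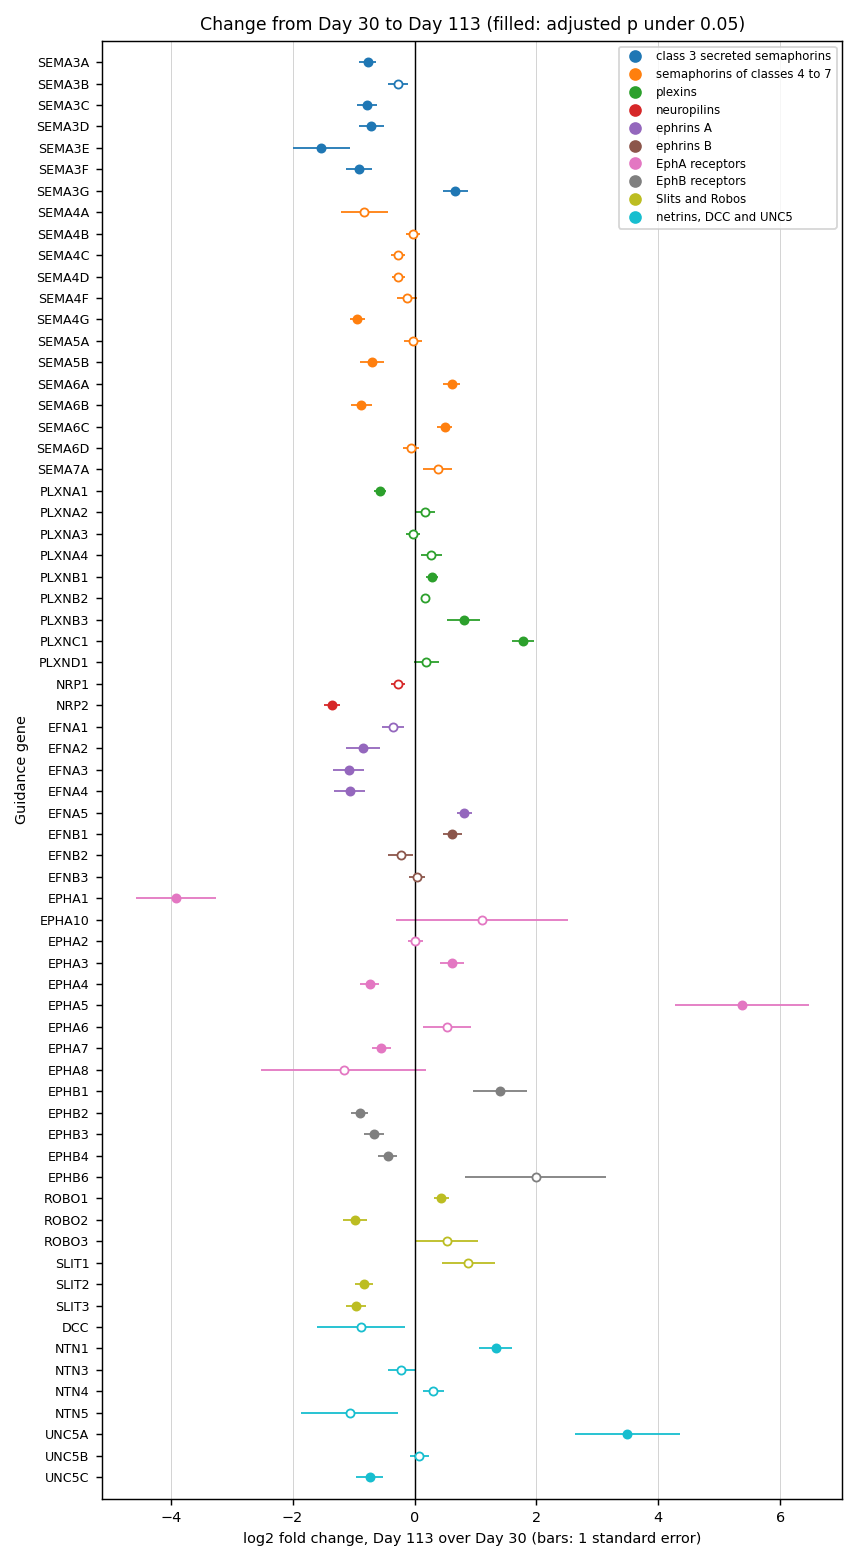
Points give the log2 fold change of each of the 67 guidance genes from Day 30 to Day 113 and bars 1 SE, coloured by class, with filled points for an adjusted p under 0.05. The called values run from -3.92 (EPHA1) to 5.37 (EPHA5, from 2 counts on Day 30), with 14 to the right of 0 and 23 to the left.

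Downstream of these receptors, the 46 listed guidance effectors (GTPases and their regulators, collapsin response mediators, kinases and adaptors) had 2 members called higher and 9 lower by Day 60, 9 higher and 7 lower after it, and 9 higher and 15 lower from Day 30 to Day 113. These were 23.9%, 34.8% and 52.2% of the list, beside 10.3%, 24.0% and 34.5% of all genes. Their median log2 changes were -0.15, 0.08 and -0.06. From Day 30 to Day 113 the lowest called member was RND1, a small GTPase that binds plexins, at -3.55, and the highest was ARHGEF15, an ephexin known from endothelial cells, at 3.36. Of 32 other guidance ligands and receptors, 4 were called higher and 4 lower by Day 60, 7 higher and 4 lower after it, and 8 higher and 7 lower over the course, with medians of -0.13, 0.08 and 0.24. The shares called were 25%, 34.4% and 46.9%, beside the same shares of all genes. The highest called after Day 60 was ROBO4, an endothelial Robo, at 3.90, and the lowest DSCAML1, an adhesion molecule related to DSCAM, at -2.75.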

How the data were processed

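RNA was measured in 11 wells by poly(A)-selected RNA-seq. The authors deposited whole-number counts per gene symbol with no normalization, and a second table of TPM. STAR 2.5.3a, featureCounts 2.0.3 and hg38 are named in the submitters' processing notes with no role given. The annotation and the counting settings, strand included, are not given in the sources used here. The deposited TPM values entered no comparison: the gene length implied by count over TPM had a Spearman rho between libraries of -0.026 to 0.025 (median -0.0009 over 55 pairs of libraries and 14718 genes), where 1 length per gene would keep the order.

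The counts of all 11 libraries went into 1 quasi-likelihood fit of edgeR 4.0.16 (R 4.3.3), with TMM factors of 0.966 to 1.04 and no term but day. Its filterByExpr step (minimum count 10) removed no gene, so all 67 guidance genes were tested. Each gene had at least 35 counts over the libraries. SE is the absolute log2 fold change over the square root of F. The procedure was tested on simulated data. Differences of wells within a day exceeded sampling noise (chi-square per degree of freedom 11.7 to 88.7), so no library is a repeated reading of another. The check cannot tell separate wells from separate libraries of 1 well, since it compares the libraries with sampling noise only. All 67 symbols matched 1 GENCODE release 29 gene, with positions and exon lengths from it. The exons of 25 overlap another annotated gene, which for 10 is a gene of the table, and those counts are uncertain.

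Members and lists were chosen with earlier results of these data known. Genes named with values were, per pair of days, called members with a mean of at least 1 CPM in the higher day (up to 8 in each direction by log2 fold change), the most abundant of each class, and others where their class is described. EPHA5 falls outside the level limit and was chosen after its values were seen. Alternatives were RLE and upper-quartile scaling, 2 filters, DESeq2 1.42.0, limma-voom (limma 3.58.1), robust dispersions, fits of 2 days, a block, a threshold of 0.01 and leaving out each well. Among the listed markers MYH11, ELAVL4, FOXD3, PTPRC, CD163 and CD14, and of the partner list CHL1, were not used here.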

Additional observations from a re-analysis of the deposited data

Results flagged for a closer look

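In 134 checks, each of 1 guidance gene over the 4 wells of Day 30 or Day 113, the most extreme well stood apart from the other 3 in 7, where chance gives about 1 in 20. On Day 30, SEMA3D had 26.6 CPM in replicate 2 against 20.5 to 21.3 in the other wells. SEMA6A had 31.4 CPM in replicate 3 against 25.4 to 25.9, and EPHA4 had 21.8 CPM there against 17.3 to 18. EFNA4 was low in that well, at 8.26 CPM against 10.5 to 10.6. EPHA5 had 0.0667 CPM in replicate 2 and 0 in the others. On Day 113, SEMA6A had 55.8 CPM in replicate 4 against 36.1 to 38, and EPHA1 had 0.404 CPM in replicate 1 against 0.16 to 0.2.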

How the results depend on the processing

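Of 122 gene comparisons examined in 45 guidance genes, 80 were called. The stricter threshold aside, 48 of these stayed past 0.05 under each of the 20 alternatives (19 for EPHA5 from Day 30 to Day 113), 32 were lost under at least 1, and none changed direction. Among the 20, the fit with no filter repeated the main fit, where filtering had removed no gene, so it could not lose a call. Of the 42 not called, 9 passed under at least 1 alternative and 14 changed sign under at least 1. Without a well, the number of guidance genes called ran from 11 to 24 for Day 60 against Day 30, 15 to 23 for Day 113 against Day 60, 30 to 36 for Day 113 against Day 30, 35 to 42 for any change and 5 to 14 for the difference between the intervals. At an adjusted p under 0.01 the counts were 10 for Day 60 against Day 30, 24 for Day 113 against Day 30 and 5 for the difference between the intervals, fewer by construction. DESeq2 called 19 for that difference, and the cause was not tested. Replicate numbers were shared across days, but same-numbered wells correlated at 0.013 to 0.169 (10 pairs, beside -0.145 to 0.148 for others), and 6 of 11 wells correlated best with their own number. With the number as a replicate block, 26, 24, 42, 45 and 15 guidance genes were called in the same order of comparisons, while EPHA6 by Day 60 (adjusted p = 0.055) and PLXNB3 from Day 30 to Day 113 (0.054) were not. The counts without a well, at 0.01, with DESeq2 and with the block were not set beside those of all genes. A change in them can be one in genes of any kind. Falls to Day 60 that passed with the block and not in the main fit included those of NRP2 (0.04), PLXND1 (0.01) and EPHB3 (0.0051). The falls of PLXND1 and EPHB3 also passed under other alternatives, and that of NRP2 did not. With the block the dip was called in 7 genes, PLXND1 added. The block reversed uncalled values of EPHA2 (-0.008, Day 113 against Day 30) and EPHA5 (-0.0941, Day 113 against Day 60). Upper-quartile scaling and limma-voom reversed SEMA6B after Day 60 (-0.0362 and -0.0034) and EPHA2 from Day 30 to Day 113 (-0.0199 and -0.0016), and limma-voom EPHA5 after Day 60 (-0.0576). Uncalled values that changed sign without a well ran, for Day 60 against Day 30 EFNB1 (-0.1633 to 0.1419), UNC5A (-1.608 to 0.0629), SEMA3G (-0.4954 to 0.0468); for Day 113 against Day 60 EPHB2 (-0.2294 to 0.0237), SEMA3F (-0.1294 to 0.319), EPHA5 (-0.2182 to 0.4015), SEMA6B (-0.1472 to 0.1894), SLIT3 (-0.0454 to 0.3086), EPHB3 (-0.2515 to 0.0642); for Day 113 against Day 30 SEMA5A (-0.1649 to 0.118), EFNB3 (-0.0612 to 0.1755), EPHA2 (-0.0698 to 0.1284), PLXND1 (-0.1399 to 0.369), UNC5B (-0.1476 to 0.2236). Depth limits genes under 1 CPM, such as EPHA5, EPHA8 and EPHB6, whose SE passed 0.8 log2 units.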
